A study of Mus musculus with 8 samples.

Results

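The urea cycle and periportal genes described here are Cps1, Otc, Ass1, Asl, Arg1, Gls2, Hal, Sds, Cyp2f2 and Hsd17b13. They were chosen by name, and every probe set annotated to one of them was taken. Of the 10 genes, 8 had a probe set, which gave 12 probe sets of 45037 on the array, and Gls2 and Sds were not analysed here. RNA of whole liver was hybridised to Affymetrix whole-genome mouse arrays, 1 for each animal. The mutant livers, called txnrd1-/- below, came from 4 txnrd1 cond/- albCre1 mice (animals 69, 72, 73 and 81), with a conditional and a null allele of txnrd1, the gene of cytosolic thioredoxin reductase 1. The control livers came from 4 txnrd1 cond/+ albCre0 mice (animals 70, 71, 80 and 82), with a conditional and a wild-type allele and no Cre. All 8 were young adult males, housed singly for 10 d under 14 h of light and 10 h of dark. The albumin promoter drives Cre in hepatocytes, so the other cells of a mutant liver still carry the conditional allele, and effects of the deletion, of Cre and of the null allele in those cells cannot be told apart.

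Liver converts ammonia, which is toxic, to urea. Cps1 and Otc work in the mitochondria and Ass1, Asl and Arg1 in the cytosol, and blood entering a lobule first meets the periportal hepatocytes, which are rich in these enzymes and in those that break down histidine and serine. Ammonia that escapes is taken up by a rim of pericentral hepatocytes, which make glutamine from it.

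The deposited values are linear ratios, each probe set being scaled to about 1 at its median over the 8 arrays. They therefore show how a gene differed between livers but not how abundant it was beside another gene, and a list of hepatocyte markers cannot show by its level that the tissue was liver. The 7 measured genes of 8 in that list had mean log2 ratios between -0.09 and 0.05 in every liver. Over the 5 measured markers of exocrine pancreas, the mean log2 ratio was 3.62 in control animal 71 and between -0.44 and 0.09 in the other livers, and its part in the results below was not tested. The 3 probe sets of Txnrd1 did not move one way: 1424486_a_at ranged between 0.598 and 0.997 in txnrd1-/- livers and between 0.993 and 1.51 in controls, 1424487_x_at between 0.755 and 0.965 in txnrd1-/- livers and between 1.03 and 1.33 in controls, and 1421529_a_at between 1.10 and 2.00 in txnrd1-/- livers and between 0.410 and 0.900 in controls. No source used here says whether these probe sets lie in the exons removed by Cre, so they do not check the labels.

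None of the 12 probe sets passed the test between genotypes, which asked for a 1.5-fold difference together with an adjusted p not above 0.05 (limma, Benjamini-Hochberg over all probe sets). Over the whole array 12 of 45037 passed, or 0.0266%. With the probe sets of each gene averaged, 0 of the 8 genes passed, against 15 of 18193 genes overall (0.0824%). At an unadjusted p of at most 0.05 by the same test, 1 of the 12 probe sets passed, read beside a background of 1.82% of all probe sets, and 1 of the 8 genes, beside 2.32% of all genes. Both were Otc. The median log2 difference, txnrd1-/- over control, was 0.14 for the 8 genes and -0.10 for the 5 urea cycle genes, against 0.00 for all genes. Of the 8 genes, 5 were higher and 3 lower. In whole liver, a change in the share of periportal hepatocytes and a change in RNA per cell cannot be told apart.

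**Figure D1:**
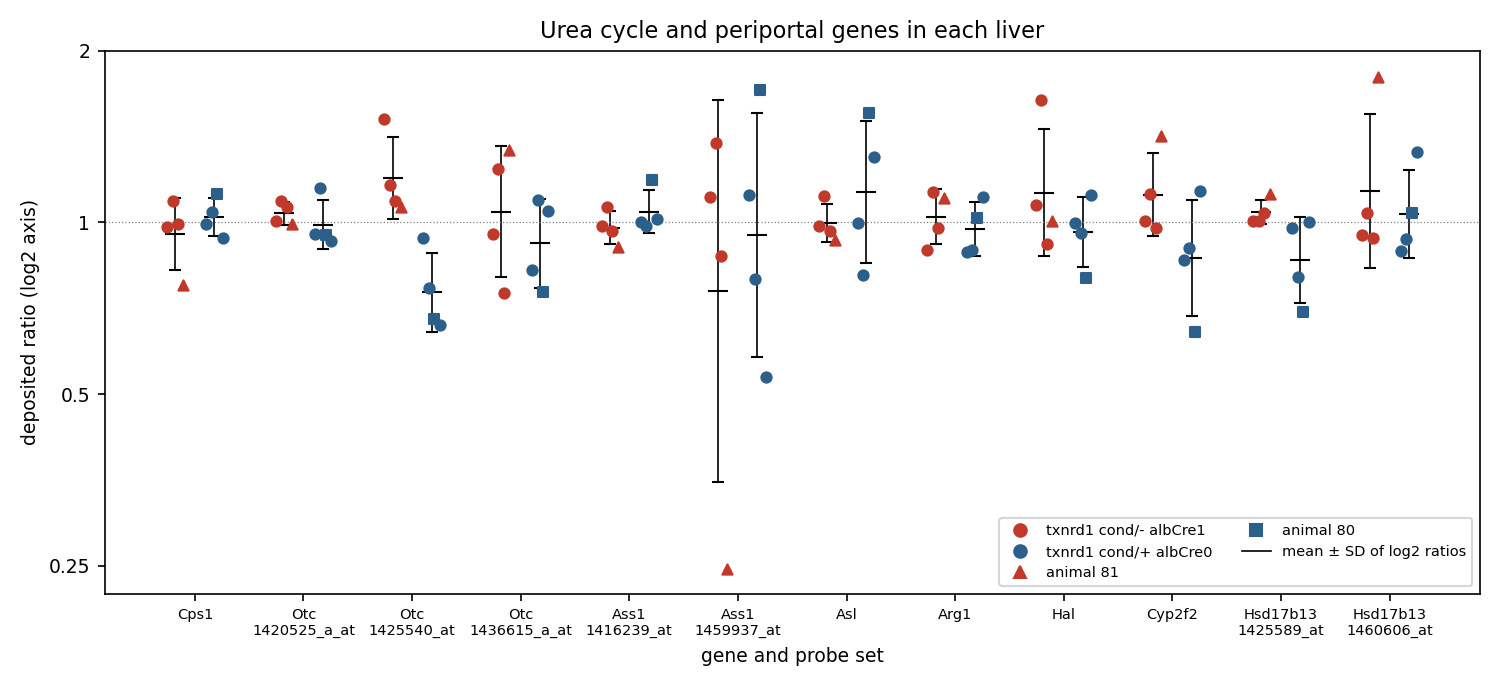
Deposited ratio (log2 axis) of the 12 probe sets in each txnrd1-/- liver (txnrd1 cond/- albCre1, red, left of each pair) and each control liver (txnrd1 cond/+ albCre0, blue, right); bars are the mean ± SD of log2 ratios over 4 livers. The genotypes overlapped in 10 probe sets and were apart in Otc 1425540_at and Hsd17b13 1425589_at, while Ass1 1459937_at ran between 0.247 in animal 81 (triangle) and 1.71 in animal 80 (square).

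The first step of the cycle, the joining of ammonia and bicarbonate to carbamoyl phosphate, is made by Cps1. Its ratios were 0.982, 1.09, 0.995 and 0.778 in txnrd1-/- livers, against 0.995, 1.05, 1.12 and 0.939 in controls. The genotypes overlapped, with the lowest value in mutant animal 81 and the highest in control animal 80. Cps1 averaged 0.962 ± 0.132 in txnrd1-/- livers and 1.03 ± 0.0781 in controls (SD, n = 4 each). The fitted log2 difference was -0.10 (SE 0.13, 95% interval -0.40 to 0.20), so a difference of 1.5-fold in either direction lay outside the interval.

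Otc joins carbamoyl phosphate to ornithine, giving citrulline. The array reads it with 3 probe sets, which did not behave alike. With 1425540_at the ratios were 1.52, 1.16, 1.09 and 1.06 in txnrd1-/- livers, against 0.940, 0.768, 0.678 and 0.662 in controls. All 4 mutant values lay above all 4 control values, the lowest mutant value belonging to animal 81 and the highest control value to animal 70. The means were 1.21 ± 0.212 in txnrd1-/- livers and 0.762 ± 0.128 in controls, 1.59-fold apart (95% interval 1.24 to 2.03). It was the only probe set of the 12 whose unadjusted limma p was at most 0.05, but its adjusted p over the whole array was 1.00. An exact permutation test over the 8 livers gave p = 0.0286 (2-sided), the smallest that 4 against 4 can give. Any groups of 4 that do not overlap give this value, so it adds nothing to the lack of overlap. Of all probe sets, 0.484% were at least 1.5-fold higher in txnrd1-/- livers at that unadjusted threshold.

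The other probe sets of Otc gave overlapping genotypes. With 1420525_a_at the ratios were 1.01, 1.09, 1.06 and 0.992 in txnrd1-/- livers, against 0.955, 1.15, 0.950 and 0.928 in controls, and the log2 difference was 0.07 (95% interval -0.19 to 0.32). With 1436615_a_at they were 0.954, 1.24, 0.753 and 1.34 in txnrd1-/- livers, against 0.825, 1.09, 0.756 and 1.05 in controls, and the log2 difference was 0.19 (95% interval -0.27 to 0.64). The highest value of the first was in control animal 71 and that of the second in mutant animal 81. Within each liver, the log2 ratio of 1425540_at minus the mean of the other probe sets was 0.63, 0.00, 0.28 and -0.12 in txnrd1-/- livers and 0.08, -0.55, -0.32 and -0.57 in controls. Averaged over all 3 probe sets, Otc was 1.09 ± 0.0940 in txnrd1-/- livers and 0.886 ± 0.0840 in controls, a 1.24-fold difference (95% interval 1.04 to 1.47). The adjusted p was 1.00 in limma, and an exact permutation test gave p = 0.0571 (2-sided). The averaged values overlapped: animal 73 was lower than control animal 71.

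**Figure D2:**
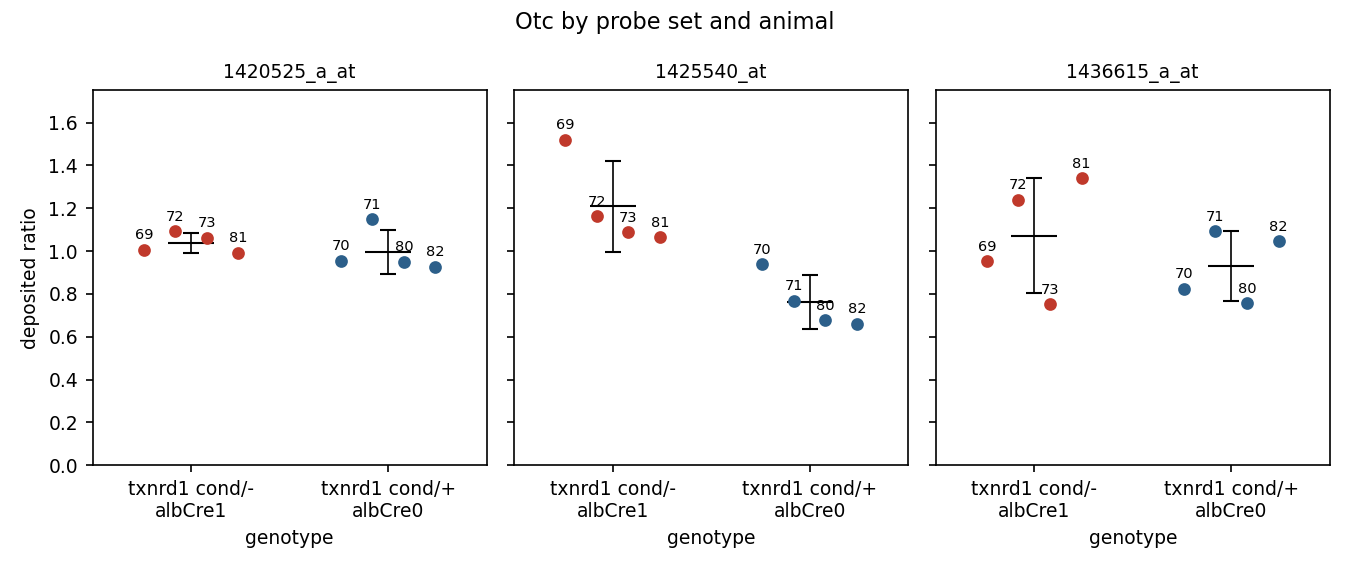
Deposited ratio of Otc by probe set, with the animal number beside each point; txnrd1-/- livers (txnrd1 cond/- albCre1) are on the left and controls (txnrd1 cond/+ albCre0) on the right, bars giving mean ± SD (n = 4). The genotypes are apart only in the middle panel, 1425540_at, at 1.06 to 1.52 in txnrd1-/- livers and 0.662 to 0.940 in controls.

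The bases in front of Otc are shown because it alone among these genes passed the unadjusted threshold in the main fit. They are the 250 bases upstream of its RefSeq start, chrX:10252055-10252304 on the plus strand of GRCm38.p6:
Otc: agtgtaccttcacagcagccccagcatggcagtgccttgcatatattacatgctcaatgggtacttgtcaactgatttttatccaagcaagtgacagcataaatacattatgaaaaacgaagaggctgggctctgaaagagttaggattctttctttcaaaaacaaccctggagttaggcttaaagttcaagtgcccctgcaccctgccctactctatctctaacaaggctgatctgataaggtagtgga
No letters are in capitals, because none of the motifs searched on both strands was found in this window. The motifs were TGACNNNGC, the core of the antioxidant response element bound by Nrf2 (in 10.2% of all 32851 RefSeq promoter windows of this length), TGACGTCA, the cyclic AMP response element (1.55%), TATAAA (12.4%), CCAAT (33.8%), the nuclear receptor half-site AGGTCA (14.0%), TTGCNNAA, a C/EBP site (9.56%), and CAAAGTCCA, an HNF4 site (0.384%). Windows were given for 5 of the 8 genes, and the antioxidant response element core was in 0 of the 5.

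Citrulline is condensed with aspartate by Ass1. Of its probe sets, 1416239_at is also annotated to Gm5424, a related pseudogene, and signal from the gene and from the pseudogene cannot be told apart. It had ratios of 0.986, 1.06, 0.965 and 0.905 in txnrd1-/- livers, against 1.00, 0.986, 1.19 and 1.01 in controls, with a log2 difference of -0.09 (95% interval -0.35 to 0.16). The probe set annotated to Ass1 alone, 1459937_at, had 1.11, 1.38, 0.875 and 0.247 in txnrd1-/- livers, against 1.12, 0.796, 1.71 and 0.536 in controls. Its spread over the livers (SD 0.88 on the log2 scale) was at the 99.4th percentile of all probe sets, and the highest liver, control animal 80, stood 6.92-fold above the lowest, mutant animal 81. The log2 difference between genotypes was -0.33 with a 95% interval from -1.50 to 0.85, and without animal 81 it was 0.21, so the direction rested on that liver. In animal 81 the log2 ratio of 1459937_at differed from that of 1416239_at by -1.87 and in control animal 82 by -0.92, while in the other livers the probe sets lay within 0.53 of each other.

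Asl splits argininosuccinate into arginine and fumarate. Its ratios were 0.984, 1.11, 0.967 and 0.932 in txnrd1-/- livers, against 0.999, 0.810, 1.55 and 1.30 in controls. The mutant livers fell inside the range of the controls, among which animals 80 and 82 were high and animal 71 low. The log2 difference was -0.18 (SE 0.19, 95% interval -0.61 to 0.25). It was -0.03 without animal 80.

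Arg1, which releases urea from arginine and returns ornithine to Otc, had ratios of 0.895, 1.13, 0.977 and 1.11 in txnrd1-/- livers, against 0.887, 0.896, 1.02 and 1.11 in controls. The values covered nearly the same range in both genotypes. The log2 difference was 0.07 (95% interval -0.22 to 0.36). Cps1, Arg1, Otc 1420525_a_at and Ass1 1416239_at were the 4 probe sets of 12 whose whole 95% interval lay within 1.5-fold of no difference, against 74.0% of all probe sets.

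**Figure D3:**
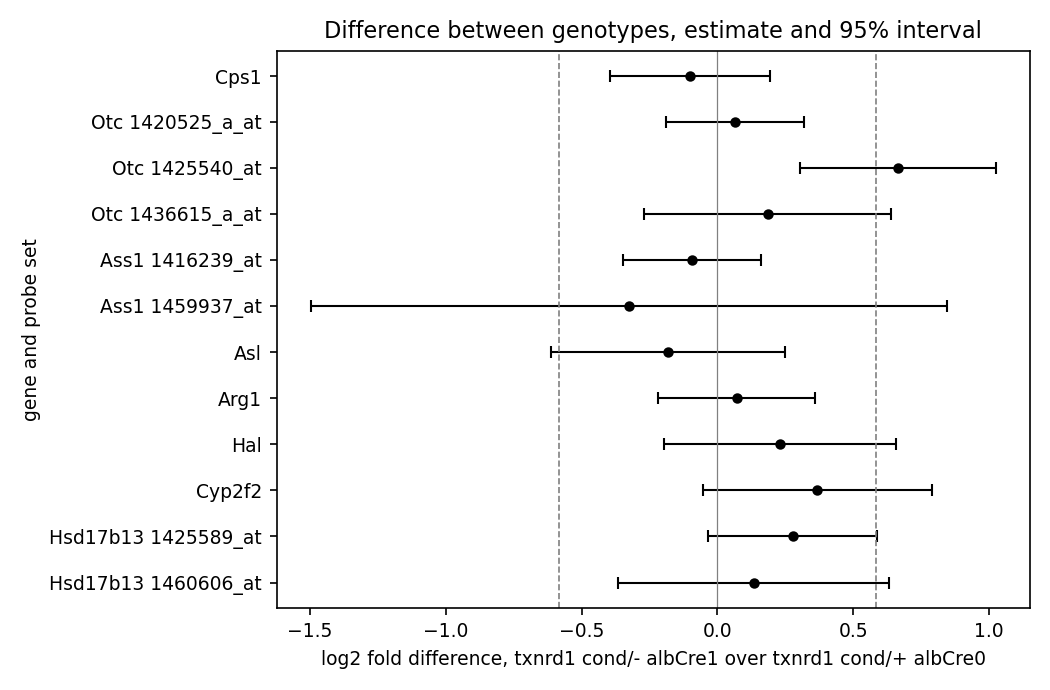
Log2 fold difference of txnrd1-/- livers over controls for the 12 probe sets, with the 95% interval from limma; dashed lines mark 1.5-fold in either direction. The interval of Otc 1425540_at (0.31 to 1.02) lies above 0, the other 11 include 0, and that of Ass1 1459937_at is the widest of the set.

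Outside the urea cycle, the members are enzymes that mark periportal hepatocytes. Hal, which opens histidine breakdown by removing its amino group as ammonia, had ratios of 1.07, 1.64, 0.916 and 1.01 in txnrd1-/- livers, against 0.998, 0.960, 0.798 and 1.12 in controls. Mutant animal 72 was high and the other mutant livers lay inside the control range. The log2 difference of 0.23 (95% interval -0.20 to 0.66) was 0.05 without animal 72.

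Cyp2f2 is a cytochrome P450 that oxidises small aromatic xenobiotics such as naphthalene, and a common marker of the periportal zone in mouse liver. It had ratios of 1.01, 1.12, 0.978 and 1.42 in txnrd1-/- livers, against 0.858, 0.902, 0.643 and 1.14 in controls. Animal 81 was highest of the mutant livers, animal 82 highest and animal 80 lowest of the controls, and only animal 82 among the controls reached into the mutant range. The means were 1.13 ± 0.201 in txnrd1-/- livers and 0.885 ± 0.202 in controls. The log2 difference was 0.37 (SE 0.19, 95% interval -0.05 to 0.79), which did not pass (limma, adjusted p = 1.00).

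Hsd17b13, an enzyme of lipid droplets in hepatocytes, was read by 2 probe sets. With 1425589_at its ratios were 1.01, 1.01, 1.04 and 1.12 in txnrd1-/- livers, against 0.979, 0.803, 0.696 and 1.00 in controls. The genotypes did not overlap, but control animal 82 came close to the lowest mutant values, those of animals 69 and 72. As for Otc 1425540_at, an exact permutation test gave p = 0.0286 (2-sided). The log2 difference was 0.28 (95% interval -0.03 to 0.59; limma, adjusted p = 1.00). Of the 12 probe sets, 2 were higher in every mutant liver than in every control, this one and Otc 1425540_at, and 0.897% of all probe sets were so.

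With 1460606_at the ratios of Hsd17b13 were 0.952, 1.04, 0.938 and 1.80 in txnrd1-/- livers, against 0.892, 0.934, 1.04 and 1.33 in controls. Mutant animal 81 was far above the rest and control animal 82 second. The log2 difference was 0.13 (95% interval -0.36 to 0.63) and -0.09 without animal 81.

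Livers of the same genotype differed from each other in a pattern that ran through several of these genes. Control animal 80 had the highest ratios of Cps1, of both Ass1 probe sets and of Asl, and the lowest of Cyp2f2, Hal and Hsd17b13 1425589_at. Mutant animal 81 had the lowest Cps1 and the lowest of both Ass1 probe sets, and the highest Cyp2f2 and the highest of both Hsd17b13 probe sets. The mean log2 ratio of Cps1, Otc, Ass1, Asl and Arg1 was 0.02, 0.23, -0.07 and -0.43 in txnrd1-/- livers, against -0.03, -0.15, 0.25 and -0.13 in controls. Animals 72 and 80 were highest and animal 81 lowest, so both genotypes held livers at the high end. Ass1 entered this mean through 1459937_at. With both its probe sets the mean was 0.01, 0.19, -0.06 and -0.25 in txnrd1-/- livers, against -0.05, -0.12, 0.20 and -0.04 in controls, with the same livers at the ends and animal 81 less far out. The low place of animal 81 rested on Ass1. Its averaged Otc was 1.12 and its Arg1 1.11, and over Cps1, Otc, Asl and Arg1 alone animal 71 was lower.

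**Figure D4:**
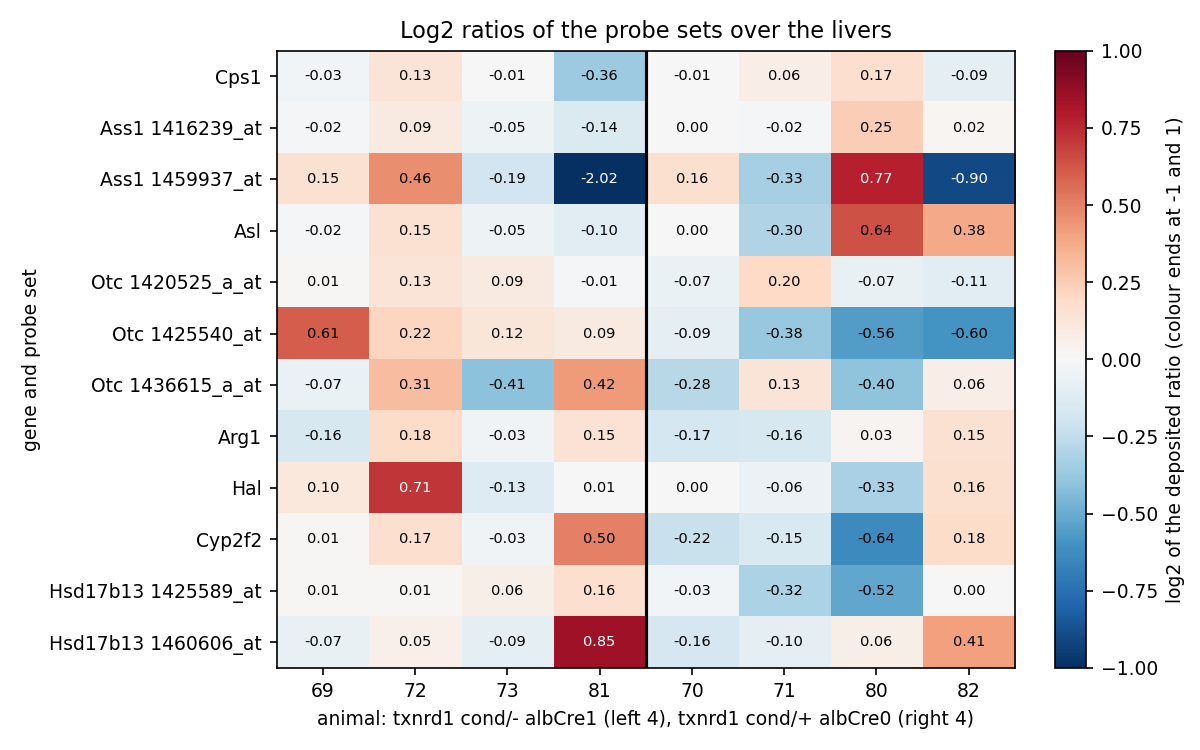
Log2 of the deposited ratio for each probe set (rows) and liver (columns, animal numbers), with txnrd1-/- livers (txnrd1 cond/- albCre1) left of the black line and controls (txnrd1 cond/+ albCre0) right of it. Animal 80 is red in Cps1, Ass1 and Asl and blue in Cyp2f2 and Hsd17b13 1425589_at, and animal 81 shows the opposite in Cps1, Ass1 and Cyp2f2. In Otc 1436615_a_at animal 80 is blue and animal 81 red.

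Over the 8 livers, Cps1 followed Ass1 1459937_at with Pearson's r = 0.94 (exact permutation p = 0.0014) and Spearman's rho = 0.81 (exact permutation p = 0.018). Without the 2 livers farthest from the median of Cps1, animals 81 and 80, r was 0.68. Cyp2f2 followed Hsd17b13 1425589_at with r = 0.86 (exact permutation p = 0.0042) and rho = 0.75 (exact permutation p = 0.038), and r was 0.47 without animals 80 and 81. Cps1 ran against Cyp2f2, with r = -0.77 (exact permutation p = 0.037) and rho = -0.72 (exact permutation p = 0.052), and here r was -0.05 without animals 81 and 80, so the opposition rested on those livers. All 66 pairs of probe sets were computed, and 13 had an unadjusted exact permutation p of Pearson's r of at most 0.05. By either coefficient, 0 had an adjusted p of at most 0.05. The adjusted exact permutation p of Pearson's r was 0.092 for the first pair, 0.14 for the second and 0.19 for the third. With each genotype's mean removed the 3 values of r were 0.94, 0.78 and -0.76. Cps1 with the other Ass1 probe set, 1416239_at, had r = 0.80 (exact permutation p = 0.033), and 0.48 without animals 81 and 80. Urea cycle probe sets did not all run against the periportal markers. With Cyp2f2, r was -0.78 for Ass1 1459937_at (exact permutation p = 0.028) but 0.78 for Otc 1436615_a_at (exact permutation p = 0.017). Arg1 with Hsd17b13 1460606_at had r = 0.71 (exact permutation p = 0.023). Without the 2 livers farthest from the median of the urea cycle probe set, these r were -0.44, 0.83 and 0.84. All points of a pair come from the same arrays and share their scaling. The animal numbers 69 to 73 and 80 to 82 hold 5 and 3 livers, too few for a correlation of their own.

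The upstream bases of Cyp2f2 and Hsd17b13, the 2 members named as periportal markers that are not enzymes of amino acid breakdown, are shown next. Both windows held the half-site AGGTCA, in capitals here, on opposite strands. This motif was among those added after the data were seen, and the match bears on no result above. The Cyp2f2 window is chr7:27119705-27119954 on the plus strand and the Hsd17b13 window chr5:103977389-103977638 on the minus strand (RefSeq, GRCm38.p6), each read in the direction of its gene:
Cyp2f2: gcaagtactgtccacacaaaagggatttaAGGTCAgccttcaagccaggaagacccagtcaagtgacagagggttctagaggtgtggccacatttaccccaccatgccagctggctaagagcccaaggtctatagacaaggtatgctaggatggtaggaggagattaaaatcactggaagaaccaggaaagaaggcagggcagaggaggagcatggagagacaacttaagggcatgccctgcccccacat
Hsd17b13: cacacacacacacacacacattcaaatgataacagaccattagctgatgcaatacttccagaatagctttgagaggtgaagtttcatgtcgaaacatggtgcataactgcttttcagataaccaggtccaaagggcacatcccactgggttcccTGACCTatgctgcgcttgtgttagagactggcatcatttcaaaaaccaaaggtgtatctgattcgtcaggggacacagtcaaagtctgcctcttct
The match starts 221 bases before the start in Cyp2f2 and 96 bases before it in Hsd17b13, and 14.0% of all windows hold one. Of the other windows given, that of Ass1 held none of the motifs and that of Hal held TTTATA (the TATA box letters on the other strand), CCAAT and TTGCTCAA (a C/EBP match).

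By the likeness of their log2 ratios over the 8 livers to the mean of the 5 urea cycle genes, the nearest genes outside the set were Smtnl2 (r = 0.96), Hpd (0.95), C530044C16Rik (0.95), Tango2 (0.93) and Got1 (0.93). Hpd is an enzyme of tyrosine breakdown and Got1 is an aspartate aminotransferase. These genes were picked for the highest r among all genes, and the values are a description of these 8 livers. The mean they were set against largely followed Ass1 1459937_at (r = 0.95), and with the mean of Cps1, Otc, Asl and Arg1 alone the same genes had r of 0.67, 0.82, 0.72, 0.53 and 0.55, in the order above.

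Around the members, 8 lists of genes of nitrogen metabolism and liver zonation named 103 genes, of which 92 were measured, and 0 passed the adjusted test (limma; 0.0824% of all genes did). At an unadjusted p of at most 0.05 the same test had 5 higher and 2 lower in txnrd1-/- livers, 7.61% of the 92 beside 2.32% of all genes. The lists were chosen with earlier results of these data known, and 2 of their genes, Asns and Tdo2, had also been picked by the study on these samples, so the share is not independent evidence. In 5 of the 92 genes the genotypes did not overlap, or 5.43%, beside 1.71% of all genes. Of the 7 past the unadjusted threshold, Oat, Tdo2 and Rhbg stayed past it when any 1 animal was left out and the other 4 did not.

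Among 14 measured genes of nitrogen supply and urea cycle partners, the median log2 difference was -0.03. Nags makes N-acetylglutamate, without which Cps1 is inactive. Its ratios were 0.992, 0.894, 0.930 and 0.928 in txnrd1-/- livers, against 0.992, 1.02, 1.71 and 1.36 in controls, with animals 80 and 82 high. The log2 difference was -0.40 (95% interval -0.79 to -0.02; limma, adjusted p = 1.00) and -0.25 without animal 80, and the unadjusted threshold was passed only when animal 70, animal 71 or none was left out. Asns, which makes asparagine from aspartate, had 1.23, 0.973, 1.04 and 2.54 in txnrd1-/- livers, against 0.804, 0.598, 1.06 and 0.488 in controls. Its log2 difference was 0.92 (95% interval 0.19 to 1.65; limma, adjusted p = 1.00), with animal 81 far above the other mutant livers. It was 0.61 without animal 81, and the unadjusted threshold was missed without animal 82.

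Of 10 measured genes that use arginine and ornithine, Oat, which turns ornithine to glutamate semialdehyde and in liver is known from the pericentral zone, had 1.10, 1.19, 1.03 and 1.01 in txnrd1-/- livers, against 0.847, 0.766, 1.00 and 0.799 in controls. The genotypes did not overlap, and the log2 difference was 0.35 (95% interval 0.09 to 0.60; limma, adjusted p = 1.00). The median of that list was 0.06. For the 9 measured genes of histidine, serine, threonine and glycine breakdown the median was 0.08, with 0 past the unadjusted limma threshold. In that list Agxt, which removes glyoxylate, was lower in every mutant liver (0.839 to 0.997) than in every control (1.00 to 1.31), with a log2 difference of -0.25 (95% interval -0.52 to 0.02).

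Over 24 measured genes that break down other amino acids the median log2 difference was -0.04. Tdo2, which opens tryptophan breakdown, had 1.03, 1.32, 1.10 and 1.30 in txnrd1-/- livers, against a range of 0.679 to 0.961 in controls. The genotypes did not overlap, and the log2 difference was 0.58 (95% interval 0.27 to 0.90; limma, adjusted p = 0.71). Tat, of tyrosine breakdown, was at -0.24 (95% interval -0.80 to 0.31).

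The 11 measured genes of another list of periportal genes had a median log2 difference of 0.03, with Aldh1b1, a mitochondrial aldehyde dehydrogenase, at 0.49 (95% interval 0.03 to 0.95; limma, adjusted p = 1.00), which missed the unadjusted threshold without animal 69, 71, 72 or 82. G6pc, the last enzyme of glucose release, was at -0.29 (95% interval -1.10 to 0.52). The 12 pericentral genes had a median of -0.09, 1 of them positive and 11 negative. The positive gene was Rhbg, an ammonia channel of the pericentral rim, with 1.45, 1.24, 1.41 and 1.03 in txnrd1-/- livers, against 0.969, 0.628, 0.817 and 0.465 in controls. Its genotypes did not overlap, and its log2 difference of 0.87 (95% interval 0.39 to 1.36) did not pass (limma, adjusted p = 0.79).

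Slc13a3, a dicarboxylate carrier, was lower in every mutant liver (0.846 to 1.01) than in every control (1.05 to 1.43), with a log2 difference of -0.30 (95% interval -0.58 to -0.03; limma, adjusted p = 1.00). It was -0.20 without animal 80, and the unadjusted threshold was missed without animal 73, 80 or 81. Glul, the glutamine synthetase of the pericentral rim, was at -0.28 (95% interval -0.63 to 0.08), and Cyp2e1, a pericentral cytochrome P450, at 0.00. Across the pericentral genes, the mean log2 ratio was between -0.26 and 0.07 in txnrd1-/- livers and between -0.15 and 0.15 in controls, with the lowest value in animal 81. That liver was also the lowest in Cps1 and Ass1. The 11 measured regulators of these genes had a median of 0.04, with Ppargc1a, a coactivator of the fasting response, at 0.30 (95% interval -0.61 to 1.21) and Hnf4a, a hepatocyte nuclear receptor, at -0.17 (95% interval -0.50 to 0.15). Of 6 relatives of the members, Arg2 and Hsd17b11 were measured, with a median of -0.12.

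**Figure D5:**
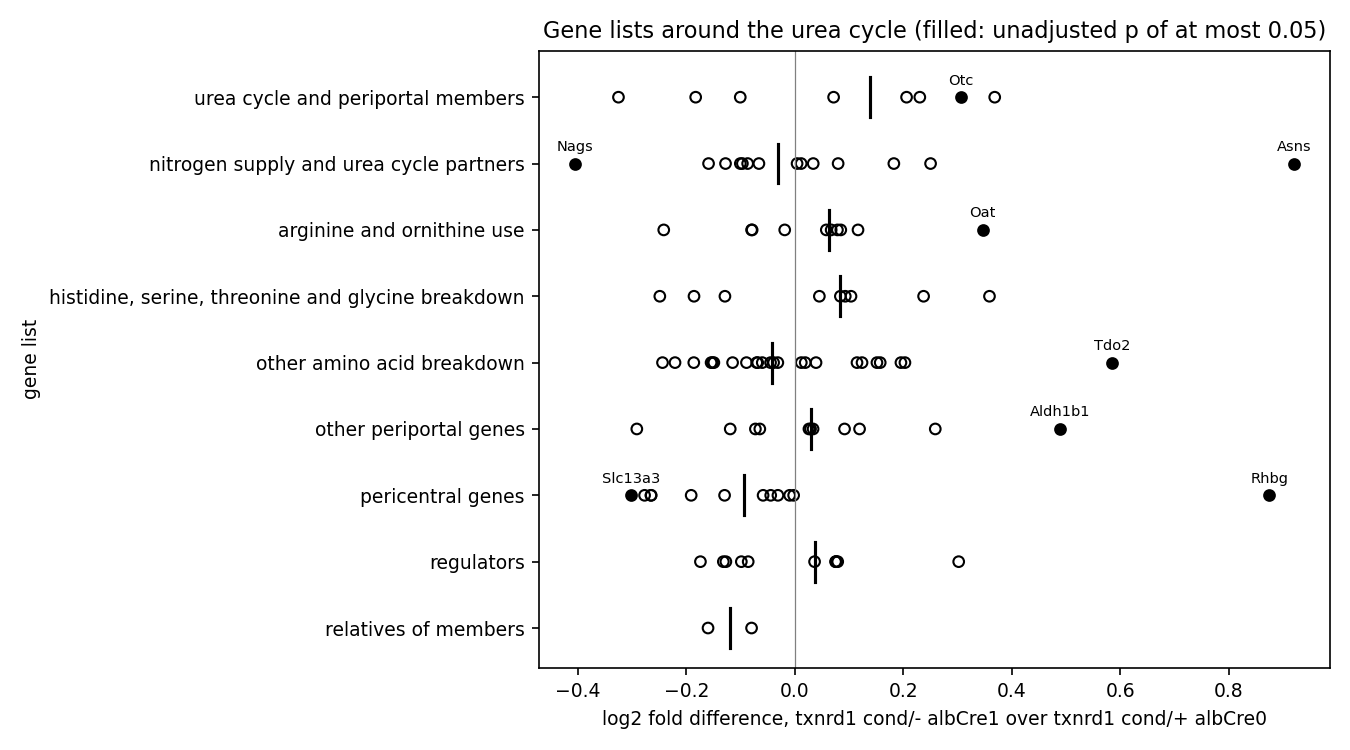
Log2 fold difference of txnrd1-/- livers over controls for each measured gene (circles) by list, with the list's median as a bar; filled circles had an unadjusted limma p of at most 0.05. Medians lie between -0.12 and 0.14, and the named genes run between -0.40 (Nags) and 0.92 (Asns).

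For lists of markers of liver cells, the median log2 difference, txnrd1-/- over control, was -0.04 for hepatocytes, -0.09 for Kupffer cells and macrophages, -0.14 for endothelial cells, -0.08 for stellate cells and fibroblasts, -0.06 for bile duct cells, -0.04 for neutrophils, 0.03 for lymphocytes, -0.17 for erythroid cells (2 genes measured) and -1.01 for exocrine pancreas, whose 5 measured genes were all lower. For the pancreas genes, control animal 71 alone had a high mean log2 ratio, 3.62. The other livers of both genotypes lay between -0.44 and 0.09. Among the neutrophil genes, 1 of the 5 measured passed the unadjusted limma threshold, beside 2.32% of all genes, with a log2 difference of -1.20. By the adjusted test 0 passed. Of the 5, 3 were lower and 2 higher, up to 0.38. In animals 81 and 80, which stood at the ends of the pattern above, the hepatocyte markers averaged 0.03 and -0.01. Other lists moved more. The erythroid mean was -0.64 in animal 80 and -0.60 in animal 72, the livers with the highest urea cycle means, and between -0.22 and 0.34 elsewhere. The endothelial mean was highest in animal 80, at 0.37, and the neutrophil mean was -0.78 in animal 81 and -0.79 in animal 82, beside -0.02 to 1.02 elsewhere. The 18 hybridization control probe sets on the arrays, which read RNA added at hybridization, had a mean log2 ratio of -0.42 in animal 81 and of 0.35 in animal 80. They were also at -0.42 in animal 72, which had a high urea cycle mean, and highest in animal 73, at 0.43. The part of these lists and of the hybridization controls in the pattern was not tested.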

How the data were processed

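The authors deposited linear ratios, scaled so that a probe set's median lies near 1: 99.0% of probe sets had a median within 0.05 of 1, and array medians were 0.997 to 0.999. The submitters' processing notes name RMA (version not given in the sources used here), no raw signal was used, and a genome build (GRCm38.p6, RefSeq) was used only for the sequences upstream of the genes. The number of arrays limits the precision, and 1 array per animal gives no technical repeat. The log2 of the ratios was fitted over all 45037 probe sets other than the 64 controls, and over 18193 genes (mean of the probe sets with 1 symbol, 34945 in all; symbols came from GEO's platform annotation), with limma 3.58.1 in R 4.3.3 (lmFit, eBayes, 2-sided). Calls required 1.5-fold and a Benjamini-Hochberg adjusted p not above 0.05; 95% intervals come from the same fits. Values of members with a single probe set are from the fit over probe sets, and those of list genes from the fit over genes. The limma fit was also run on simulated data with known changes.

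The members and lists were chosen with earlier results of these data known. All members were named, and of each list the 3 genes with the largest differences and those at an unadjusted p of at most 0.05 could be named; others, such as Cyp2e1 and those with groups that did not overlap, were named after their values were seen. Alternatives were other scalings, fits, covariates, filters, probe set rules and leaving out each animal. The fits within animal number ranges, Ass1 as both probe sets, the tests of correlations the likeness without Ass1 and 3 of the 7 motifs were added after seeing the data.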

Additional observations from a re-analysis of the deposited data

Results flagged for a closer look

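In 6 of the 42 groups of 4 livers examined, 1 liver stood apart from the others by more than Dixon's critical value, which chance exceeds in about 1 group in 20. The 42 are not separate: 28 are of members, where averages stand beside their own probe sets, and the rest are of list genes picked at the unadjusted threshold, so the count cannot be read against that share. In txnrd1-/- livers these were all animal 81: Hsd17b13 1460606_at at 1.80, Hsd17b13 averaged over its probe sets at 1.42 (the same liver and in part the same values), and Asns at 2.54. In controls they were Ass1 1416239_at at 1.19 and Slc13a3 at 1.43 in animal 80, and Otc 1420525_a_at at 1.15 in animal 71.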

How the results depend on the processing

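In every alternative run, 0 members and 0 list genes passed the adjusted test. Of 460 alternative values for 22 genes and probe sets, 452 kept direction and 8 turned. Within animal numbers 69 to 73, a fit added after seeing the data, the log2 difference was 0.0026 for Cps1, 0.23 for Ass1 and for its probe set 1459937_at, 0.18 for Asl and 0.016 for Ass1 1416239_at. Without animal 81 it was 0.21 for Ass1 and for 1459937_at and -0.087 for Hsd17b13 1460606_at. Leaving out 1 animal at a time gave -0.17 to -0.0025 for Cps1, 0.25 to 0.37 for Otc, 0.55 to 0.77 for Otc 1425540_at, -0.61 to 0.21 for Ass1, -0.34 to -0.03 for Asl, 0.02 to 0.14 for Arg1, 0.05 to 0.33 for Hal, 0.22 to 0.50 for Cyp2f2 and 0.08 to 0.30 for Hsd17b13. Averaged Otc missed the unadjusted threshold without animal 69 or 80, within animal numbers 69 to 73, over the genes with the larger SD and by exact permutation, and 1425540_at kept it without any 1 animal. Otc 1425540_at was at 0.55 within animal numbers 69 to 73. Within 80 to 82 there is 1 txnrd1-/- liver, animal 81, against 2 controls, and that liver is assumed to vary like the others. There 1425540_at was at 0.67, Otc averaged at 0.45 and Ass1 at -1.95, and Ass1 alone of these passed the unadjusted threshold. The number of genes called over the whole array ran between 0 with unequal variances for each gene and 41 over the genes with the larger SD, against 15, and that of probe sets between 0 and 59, against 12. No paired analysis was possible because the genotypes share no animal number. The cause of these shifts was not tested, and ratios give no signal over background, so how dim a probe set was is unknown.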
